A study of Mus musculus with 8 samples.

Results

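The Nduf genes encode the nuclear subunits and assembly factors of respiratory complex I, the NADH:ubiquinone oxidoreductase of the inner mitochondrial membrane. All 45 genes of the count tables whose symbol starts with Nduf were taken, of 24421 genes in all, and split by name into 38 subunits and 7 assembly factors named Ndufaf. Their mRNA was measured in mouse CD8+ T cells by RNA-seq of 3' ends. The cells were either LKB1-deficient or, as controls, LKB1 wild type, with 4 libraries in each group. Both groups had been naive T cells that were activated in culture for 48 hours on plates coated with antibodies to CD3 and CD28, a stimulus that stands in for antigen and costimulation. Stk11 encodes LKB1, the kinase upstream of AMPK, a sensor of cellular energy. The series concerns LKB1 deficiency in T cells and gastrointestinal polyposis. The sources used here do not give the LKB1 allele, the way it was deleted, or the strain, age and pooling of the mice. Whether each library came from its own mouse is not stated, and p-values then cover only the spread between these libraries, which may be technical.

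Gene counts came to 3454388 to 6356125 per LKB1-deficient library and 7090252 to 12211930 per control library, so low genes are measured less precisely in the LKB1-deficient libraries. On the first principal component, which held 56.4% of the variance, LKB1-deficient replicates 2 and 4 lay apart at -51.7 and -54.4, while LKB1-deficient replicates 1 and 3 lay at -12.5 and -6.79 and the control libraries between 21.7 and 37.9. Results are therefore given with and without those 2 libraries. Stk11 itself stood at 76.5, 70.8, 107 and 64.4 CPM, counts scaled to library size, in the LKB1-deficient libraries, against 101, 67.8, 82.0 and 77.0 CPM in the control libraries (edgeR adjusted p = 0.911). Counts of 3' ends may lie outside a deleted part of the gene, which leaves the genotype labels unchecked. The T cell markers Cd3e, Cd3d, Cd3g, Cd8a, Cd8b1, Thy1, Cd2, Cd5 and Lck summed to 3383 to 4540 CPM in LKB1-deficient and 5015 to 5336 CPM in control libraries, and Cd3d, Cd3g and Cd8a were called lower. Of the markers of other cells, 4 of CD4 T cells summed to 3.23 to 9.003 CPM in LKB1-deficient and 6.56 to 9.08 CPM in control libraries, and 7 of B cells to 5.54 to 10.7 CPM in LKB1-deficient and 7.64 to 13.0 CPM in control libraries. Myeloid markers summed to 10.2 to 21.9 CPM in LKB1-deficient and 8.80 to 14.2 CPM in control libraries, and markers of NK and innate-like T cells to 142 to 211 CPM in LKB1-deficient and 177 to 252 CPM in control libraries. Mast cell and basophil markers summed to 12.1 to 38.5 CPM in LKB1-deficient and 7.01 to 10.7 CPM in control libraries, with Gata2 and Il1rl1 called higher, and of the B and NK cell markers Cd79b and Cd160 were called lower. Pax5, S100a9, Klra8, Hbb-bs, Hbb-bt, Hba-a1, Hba-a2 and Alas2 had 0 counts in all 8 libraries.

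Complex I takes electrons from NADH, passes them along a chain of iron-sulfur clusters to ubiquinone, and pumps protons across the inner membrane. Its matrix arm consists of the N module, which binds NADH and FMN, and the Q module, which reduces ubiquinone. Its membrane arm holds the proton pumps, whose core subunits are encoded by mitochondrial DNA and were not analysed here, wrapped in nuclear accessory subunits. Assembly factors build these pieces and leave the finished enzyme. In T cells, activation sets off growth of the mitochondrial network, and proliferating cells need the NAD+ that complex I regenerates to make aspartate.

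The mRNAs of 16 complex I subunits fell in LKB1-deficient cells and none rose. Of the 7 assembly factors 1 fell, a share near that of all genes tested. Of the 38 subunits, 36 had enough counts to be tested with edgeR's quasi-likelihood test across all 10396 genes tested. Of these, 16 were lower in LKB1-deficient cells at a Benjamini-Hochberg adjusted p under 0.05, which is 44.4% of them. Among all genes tested, 10.1% were called lower and 12.4% higher. None of the 36 was called higher. The median log2 fold change of the 36 was -0.42, with a range of -0.81 to 0.22, while that of all genes tested was 0.00. A negative value was found for 34 of the 36, against 49.7% of all genes tested. In 21 of the 36 the 4 LKB1-deficient libraries lay below the 4 control libraries with no overlap, which was so for 14.1% of all genes tested, and in none did they lie above. The CPM of all 38 subunits summed to 7037, 6187, 7281 and 5914 in LKB1-deficient replicates 1 to 4, against 8656, 8069, 9480.5 and 9377 in control replicates 1 to 4. Every LKB1-deficient library was thus below every control library, and LKB1-deficient replicates 2 and 4 were the lowest of the 8. Fold changes also moved with transcript length, and 28 of the 36 subunits were among the shortest transcripts, a bin with 20.1% of genes called lower. With each library's length trend removed, 4 of the 36 were called lower, against 850 of 10353 genes in all. In bulk RNA, fewer cells of a type and less RNA per cell cannot be told apart.

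Of the 7 assembly factors, all tested, 1 (14.3%) was called lower and none higher, near the 10.1% called lower among all genes tested. Their median log2 fold change was -0.20, with a range of -0.58 to 0.67. Their summed CPM was 412, 614, 364 and 485 in LKB1-deficient replicates 1 to 4, against 385, 405, 396 and 406 in control replicates 1 to 4. The LKB1-deficient libraries overlapped the control libraries in this sum, with replicates 2 and 4 the highest of the 8 where they had been the lowest for the subunits. Ndufaf2 and Ndufaf4 held most of the sum in LKB1-deficient replicate 2, at 184 and 298 CPM. They also held much of it in the control libraries, with means of 80.4 and 123 CPM against a mean sum of 398 CPM. The median log2 CPM of the 7 was instead lowest in LKB1-deficient replicates 2 and 4, at 5.053 and 5.196, against 5.207 to 5.559 elsewhere. Without those 2 libraries, no Nduf gene was called in either direction, and over all genes 260 of 10948 tested were called; the median log2 fold change of the subunits was then -0.34. LKB1-deficient replicates 1 and 3 both lay below all 4 control libraries in 21 of 36 subunits and 2 of 7 assembly factors, against 18.1% of all genes tested. Single libraries also moved the count of 16, which was 2 when LKB1-deficient replicate 2 was left out, 3 for LKB1-deficient replicate 4, 2 for control replicate 3, 4 for control replicate 4 and 10 for control replicate 1. Calls over all genes, 2337 with every library, numbered 1113, 1017, 1011 and 1303 when the first 4 of these were left out.

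**Figure D1:**
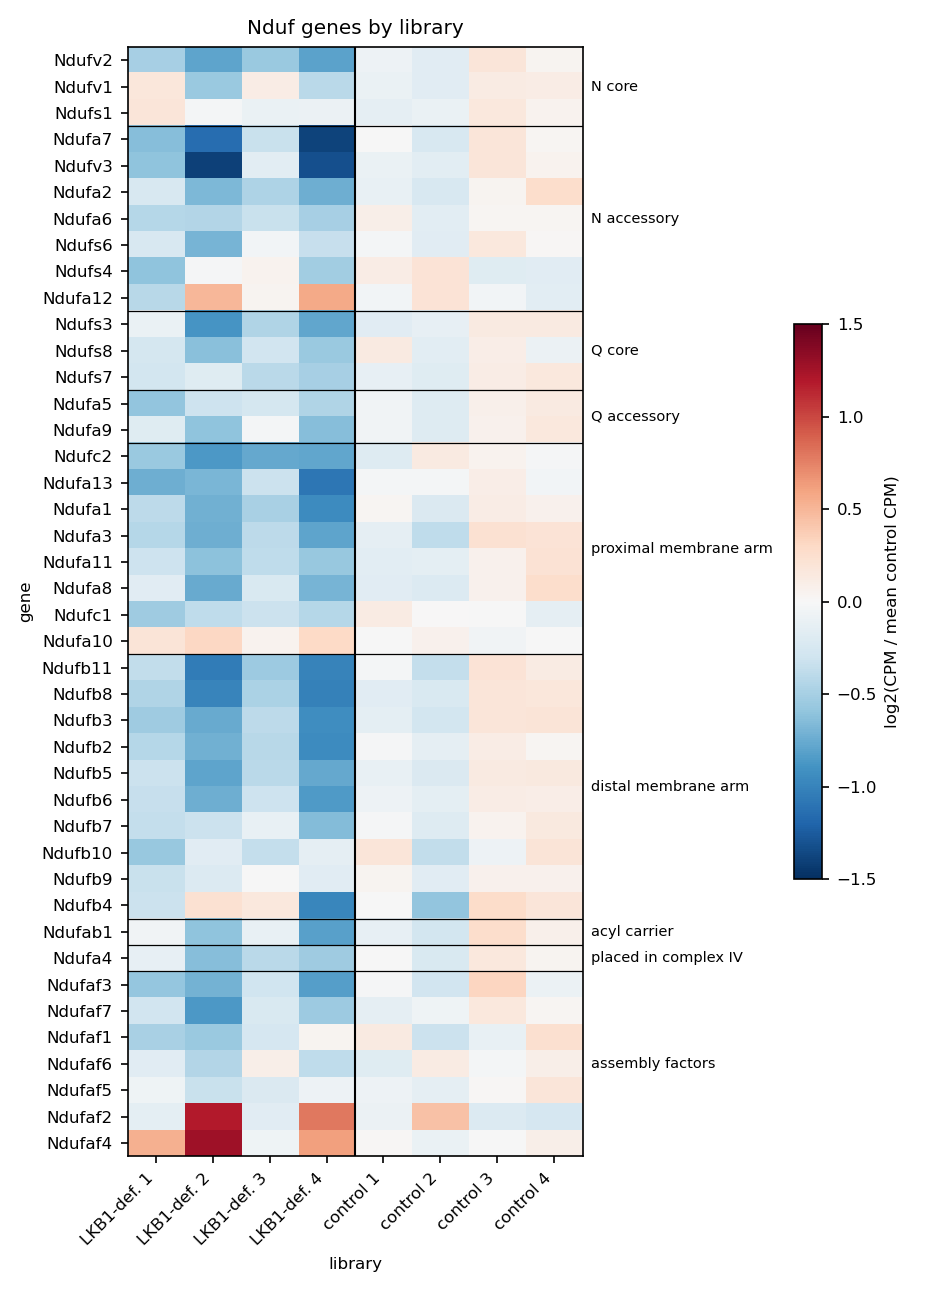
Level of 42 tested Nduf genes in each library, as log2 of CPM over the gene's mean control CPM, with genes grouped by role and LKB1-deficient libraries left of the line. Most rows of the membrane arm are blue in all 4 LKB1-deficient libraries, while Ndufaf2 is reddest in LKB1-deficient replicates 2 and 4 and Ndufaf4 is red in replicates 1, 2 and 4.

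The bases just before the start sites were read for letters known from regulators of nuclear respiratory genes, since many subunits fell in the same cells. RefSeq promoters of GRCm38.p6 were at hand for 39 of the 45 members, and the 250 bases before each start were searched on both strands. The motifs were the NRF-1 core TGCGCA, the longer NRF-1 palindrome, which is GCGCA followed by its reverse complement TGCGC, the ETS and GABP core CCGGAAG, the ERR site TGACCTT and the YY1 core AAGATGG. A T before the palindrome or an A after it makes it overlap the core. The NRF-1 core stood in 7 of 33 subunit promoters (21.2%) and 1 of 6 assembly factor promoters, against 7.36% of all 27025 genes in the promoter table. It was found in 2 of the 15 subunits called lower that have a promoter (Ndufa6 and Ndufb6) and in 4 of the 17 tested subunits that were not called. The palindrome was found in Ndufa11 and Ndufaf4 and in 0.877% of all genes. CCGGAAG was found in 3 of 33 subunits (Ndufb6, Ndufb7 and Ndufs3) and in Ndufaf1, against 7.83% of all genes. TGACCTT was found in 3 of 33 subunits (Ndufb2, Ndufb4 and Ndufs5) and no assembly factor, against 4.70% of all genes, and AAGATGG in no member, against 5.18%. The promoter table also holds genes that were not tested in these cells, and the shares among tested genes alone were not computed. A match is a description of letters and not of binding. The last 120 bases before the start are shown for 4 members, in the direction of transcription with motif letters in capitals. Ndufc2 has the smallest p of all members and holds none of the motifs. Ndufb6 was called lower with the NRF-1 core 78 bases before the start. Ndufa11 and Ndufaf4 hold the palindrome 60 and 113 bases before the start and have fold changes of opposite sign. Of these 2, Ndufaf4 was not called, and the call of Ndufa11 was lost in 10 of 23 alternatives.
Ndufc2 (chr7:97399883-97400002, plus strand): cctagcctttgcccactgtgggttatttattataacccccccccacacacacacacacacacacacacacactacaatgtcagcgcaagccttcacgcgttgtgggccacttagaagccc
Ndufb6 (chr4:40279422-40279541, minus strand): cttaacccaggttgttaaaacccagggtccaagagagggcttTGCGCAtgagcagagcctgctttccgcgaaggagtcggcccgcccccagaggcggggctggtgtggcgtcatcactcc
Ndufa11 (chr17:56717642-56717761, plus strand): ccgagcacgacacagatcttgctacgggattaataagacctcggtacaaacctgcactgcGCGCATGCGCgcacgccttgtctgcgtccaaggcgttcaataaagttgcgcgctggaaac
Ndufaf4 (chr4:24897963-24898082, plus strand): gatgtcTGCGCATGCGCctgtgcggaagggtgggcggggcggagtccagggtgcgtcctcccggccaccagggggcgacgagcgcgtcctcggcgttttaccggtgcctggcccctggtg
In Ndufaf4 the capitals cover the palindrome and the NRF-1 core that overlaps it from 1 base earlier.

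Of the accessory subunits of the membrane arm, 12 of 18 tested fell, against 10.1% of all genes tested, with a median log2 fold change of -0.55. Throughout, 4 values of a group are those of replicates 1 to 4, and ± after a log2 fold change is its approximate standard error. They are small proteins, many with a single membrane span, that surround the pumps and are needed for their assembly. In the distal part of the arm, 6 of 10 tested fell, with a median of -0.55. Ndufb8, a single-span subunit often used as a marker of assembled complex I, stood at 244, 168, 239.7 and 165 CPM in the LKB1-deficient libraries, against 296, 285, 378 and 374 CPM in the control libraries (log2 fold change -0.71 ± 0.18, adjusted p = 0.0233). Ndufb11, an X-linked subunit whose loss in people causes a syndrome of microphthalmia and skin defects, stood at 169.9, 106, 149.8 and 109 CPM in the LKB1-deficient libraries, against 215, 171, 253 and 239 CPM in the control libraries (log2 fold change -0.71 ± 0.19, adjusted p = 0.0272). In both genes the groups did not overlap, and LKB1-deficient replicates 2 and 4 were the lowest libraries. Ndufb3, a subunit mutated in human complex I deficiency, stood at 79.6, 67.9, 87.5 and 60.4 CPM in the LKB1-deficient libraries, against 104, 95.2, 130.2 and 131 CPM in the control libraries (log2 fold change -0.64 ± 0.16, adjusted p = 0.0225). For Ndufb2, a small single-span subunit, the values were 129, 105, 130.2 and 90.6 CPM in the LKB1-deficient libraries, against 172, 158, 187 and 177 CPM in the control libraries (log2 fold change -0.61 ± 0.15, adjusted p = 0.0187). Again no LKB1-deficient library reached a control library in either gene. Ndufb5, a further single-span subunit, stood at 206, 148, 194 and 151 CPM in the LKB1-deficient libraries, against 239, 222, 282 and 286 CPM in the control libraries (log2 fold change -0.56 ± 0.16, adjusted p = 0.033). Ndufb6, whose promoter holds the NRF-1 core shown above, stood at 292, 222, 298 and 205 CPM in the LKB1-deficient libraries, against 350.1, 334, 399 and 396 CPM in the control libraries (log2 fold change -0.54 ± 0.16, adjusted p = 0.0383). Both kept the groups apart, with LKB1-deficient replicates 1 and 3 nearest to the controls. The other 4 tested subunits of the distal arm did not pass the test. Ndufb7, Ndufb9 and Ndufb10 had log2 fold changes of -0.35, -0.17 and -0.30 with overlapping groups. Ndufb4 was low, at 6.75, 9.91, 9.44 and 4.31 CPM in the LKB1-deficient libraries, against 8.44, 5.61, 10.2 and 9.61 CPM in the control libraries (log2 fold change -0.14 ± 0.28, adjusted p = 0.744), and the mouse genome holds near-copies named Ndufb4b and Ndufb4c, so reads may be split among them. Of the 6 calls, that of Ndufb2 also held without control replicate 4, and none held without LKB1-deficient replicate 2, LKB1-deficient replicate 4 or control replicate 3. That of Ndufb6 was also lost without control replicate 1. Their adjusted p over the 23 alternatives reached at most 0.504.

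In the proximal part of the membrane arm, next to the matrix arm, 6 of 8 tested subunits fell, against 10.1% of all genes tested. Their median log2 fold change was -0.52. Ndufc2, whose gene lies at chr7:97400003-97407802 on the plus strand of GRCm38 and whose product sits at the proximal pump, had the smallest p of all members. It stood at 284, 229, 245 and 242 CPM in the LKB1-deficient libraries, against 364, 458, 432 and 412 CPM in the control libraries. The LKB1-deficient libraries spanned 55.7 CPM, and the highest of them lay 79.9 CPM below the lowest control library. The means were 250.2 ± 23.9 CPM in LKB1-deficient cells and 417 ± 39.7 CPM in control cells (SD, n = 4 each), which is 1.67-fold lower (log2 fold change -0.74 ± 0.14, adjusted p = 0.00826). Ndufa13, also called GRIM-19 and known besides complex I as an inhibitor of STAT3, stood at 192, 198, 256 and 150.1 CPM in the LKB1-deficient libraries, against 313, 311, 342 and 309.8 CPM in the control libraries (log2 fold change -0.68 ± 0.17, adjusted p = 0.0195). Ndufa1, an X-linked single-span subunit needed for assembly of the membrane arm, stood at 229, 182, 214 and 157 CPM in the LKB1-deficient libraries, against 306, 259, 324 and 314 CPM in the control libraries (log2 fold change -0.62 ± 0.15, adjusted p = 0.021). The groups were apart in both, with LKB1-deficient replicate 4 the lowest library. Ndufa3, another small single-span subunit, stood at 215, 174, 220.3 and 166 CPM in the LKB1-deficient libraries, against 263, 222, 337 and 332 CPM in the control libraries (log2 fold change -0.57 ± 0.17, adjusted p = 0.0402). Ndufa11, which lies where complex I meets complex III in supercomplexes and whose promoter holds the palindrome shown above, stood at 99.6, 80.7, 94.7 and 83.6 CPM in the LKB1-deficient libraries, against 111, 111, 129 and 144 CPM in the control libraries (log2 fold change -0.46 ± 0.14, adjusted p = 0.0354). Ndufc1, a partner of Ndufc2, stood at 179, 198, 207 and 193 CPM in the LKB1-deficient libraries, against 281, 260.1, 258 and 236 CPM in the control libraries (log2 fold change -0.41 ± 0.12, adjusted p = 0.0362). In Ndufc1, unlike the others, LKB1-deficient replicate 1 was the lowest library, and in Ndufa3 the highest LKB1-deficient value came within 1.53 CPM of the lowest control value. The remaining 2 did not pass. Ndufa8, which is folded in the intermembrane space by disulfide bonds, had a log2 fold change of -0.44 ± 0.18 (adjusted p = 0.0928). Ndufa10, which has the fold of a nucleoside kinase, stood at 488, 530.4, 443 and 524 CPM in the LKB1-deficient libraries, against 424, 446, 412 and 424 CPM in the control libraries (log2 fold change 0.22 ± 0.13, adjusted p = 0.222). It was 1 of 2 subunits with a positive fold change, and its groups overlapped. The call of Ndufc2 held when any 1 library was left out, and that of Ndufa13 did so except without LKB1-deficient replicate 2 or control replicate 3. Without both LKB1-deficient replicates 2 and 4, Ndufc2 had a log2 fold change of -0.65 (adjusted p = 0.0701). The calls of the other 4 did not hold without LKB1-deficient replicate 2 or 4 or control replicate 3 or 4, and those of Ndufa3 and Ndufc1 did not hold without control replicate 1; Ndufc1 also lost its call without LKB1-deficient replicate 1 or control replicate 2. Their adjusted p over the 23 alternatives reached at most 0.484.

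**Figure D2:**
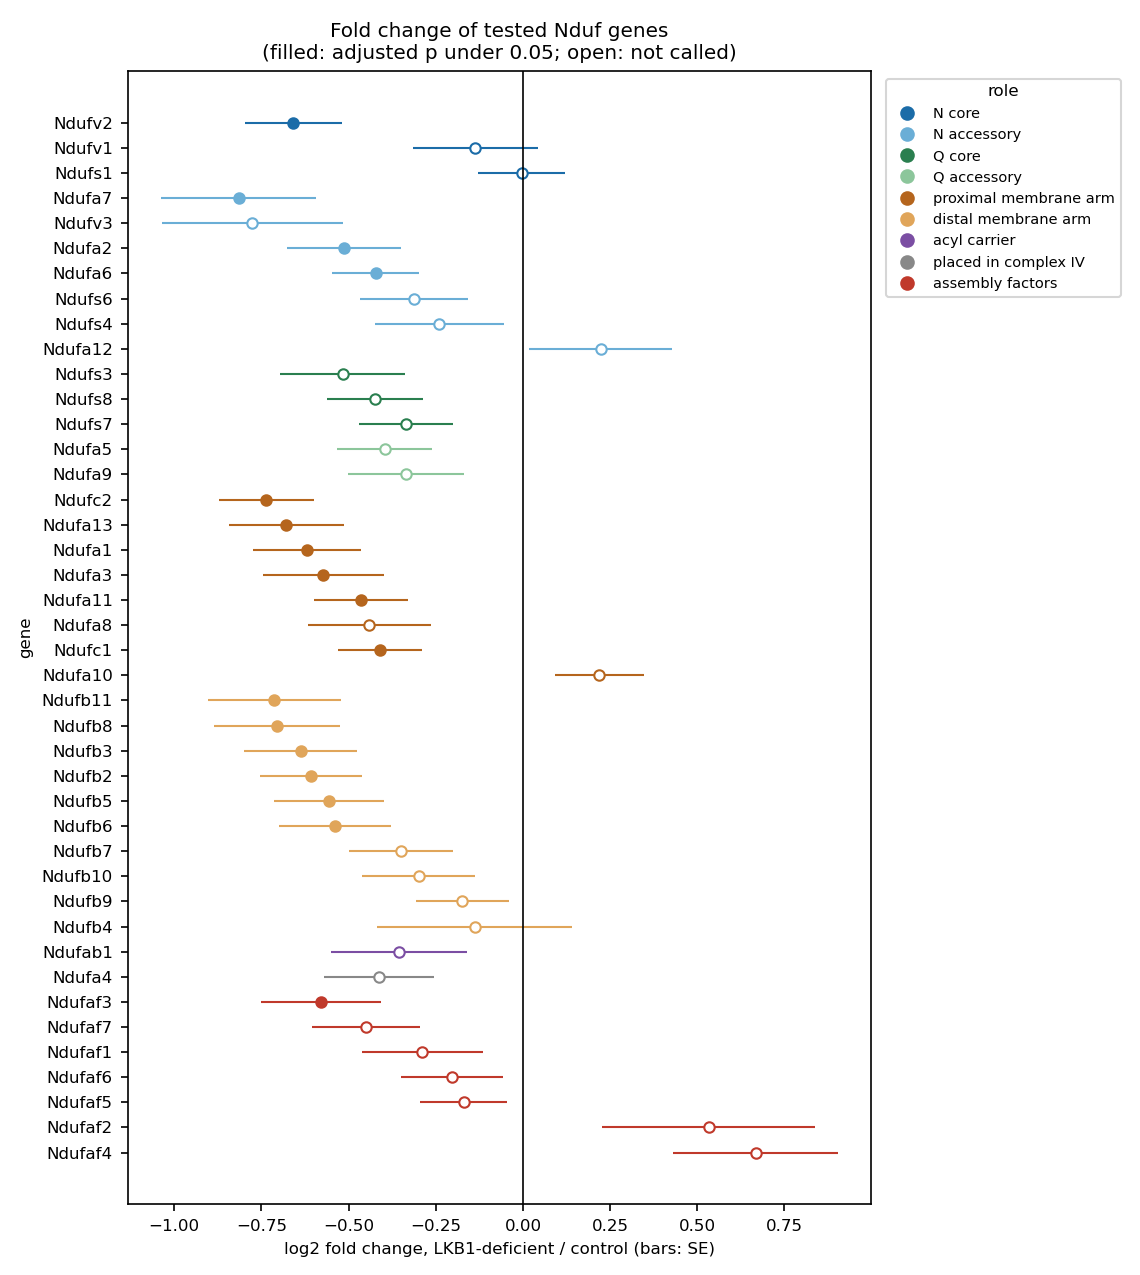
Log2 fold change of 42 tested Nduf genes, LKB1-deficient over control, with its approximate standard error, grouped and coloured by role; filled points passed an adjusted p of 0.05. Called genes lie between -0.81 and -0.41, and Ndufa10, Ndufa12, Ndufaf2 and Ndufaf4 are the only points right of 0.

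In the matrix arm, 4 of 16 tested subunits (25%) fell, with a median log2 fold change of -0.37. Among all genes tested, 10.1% were called lower, and 20.1% in the bin of the shortest transcripts. In the N module, 1 of 3 core subunits and 3 of 7 accessory subunits fell. Ndufv2, a core subunit that carries an iron-sulfur cluster beside the FMN site, is encoded at chr17:66078638-66101559 on the minus strand of GRCm38. It stood at 241, 196, 232 and 195 CPM in the LKB1-deficient libraries, against 323, 303, 386 and 352 CPM in the control libraries. The highest LKB1-deficient library was 62 CPM below the lowest control library. The means were 216 ± 23.9 CPM in LKB1-deficient cells and 341 ± 36.1 CPM in control cells (SD, n = 4 each), a level 1.58-fold lower (log2 fold change -0.66 ± 0.14, adjusted p = 0.0127). Its call held when any 1 library was left out, and its log2 fold change was -0.52 without both LKB1-deficient replicates 2 and 4 (adjusted p = 0.105). The other 2 core subunits of the module did not pass. Ndufv1, which binds NADH and FMN, stood at 161, 98.2, 155 and 109 CPM in the LKB1-deficient libraries, against 135, 128, 157 and 156 CPM in the control libraries (log2 fold change -0.14 ± 0.18, adjusted p = 0.599), so that LKB1-deficient replicates 2 and 4 were the lowest of the 8 libraries, replicate 1 the highest, and replicate 3 lay among the controls. Ndufs1, the largest subunit, with several iron-sulfur clusters, had the largest p of all members, at 125, 108, 103 and 103 CPM in the LKB1-deficient libraries, against 99.99, 103, 123 and 114 CPM in the control libraries (log2 fold change -0.00 ± 0.12, adjusted p = 0.988).

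Among the accessory subunits of the N module, Ndufa7 had the lowest fold change of all members, at 168, 118, 207 and 99.2 CPM in the LKB1-deficient libraries, against 259, 221, 296 and 267 CPM in the control libraries (log2 fold change -0.81 ± 0.22, adjusted p = 0.029). Its groups did not overlap, and LKB1-deficient replicate 4 was the lowest library. Ndufa6, an LYR-motif protein that anchors the acyl carrier Ndufab1, stood at 293, 292, 314 and 280.1 CPM in the LKB1-deficient libraries, against 421, 353, 404 and 402 CPM in the control libraries (log2 fold change -0.42 ± 0.12, adjusted p = 0.0369). Ndufa2, which has a thioredoxin-like fold, stood at 286, 213, 246 and 205 CPM in the LKB1-deficient libraries, against 314, 287, 349 and 408 CPM in the control libraries (log2 fold change -0.51 ± 0.16, adjusted p = 0.0465). The groups were apart in Ndufa6, while in Ndufa2 LKB1-deficient replicate 1 lay only 0.149 CPM below control replicate 2. Ndufv3, which has a tissue-dependent long isoform, stood at 245, 142, 334 and 149 CPM in the LKB1-deficient libraries, against 349, 335, 421 and 387 CPM in the control libraries (log2 fold change -0.78 ± 0.26, adjusted p = 0.0552). It did not pass the test although the groups did not overlap, and LKB1-deficient replicate 3 lay 0.822 CPM below the lowest control library. Ndufv3 was called lower in 7 of the 23 alternatives. Ndufs4, mutated in Leigh syndrome, and the zinc-binding Ndufs6 had log2 fold changes of -0.24 ± 0.18 and -0.31 ± 0.15 and did not pass. Ndufa12, which takes the place of the assembly factor Ndufaf2 in the finished enzyme, had the highest fold change of the subunits, at 82.1, 154, 112 and 162 CPM in the LKB1-deficient libraries, against 107, 126, 106 and 97.8 CPM in the control libraries (log2 fold change 0.22 ± 0.20, adjusted p = 0.442). LKB1-deficient replicates 2 and 4 were its highest libraries and replicate 1 its lowest, and its fold change was -0.16 without replicates 2 and 4. None of the 3 accessory calls held without LKB1-deficient replicate 2 or 4 or control replicate 1, 3 or 4; that of Ndufa6 was also lost without LKB1-deficient replicate 1 and that of Ndufa2 without LKB1-deficient replicate 3. Their adjusted p over the 23 alternatives reached at most 0.802.

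In the Q module, where electrons reach ubiquinone, none of 4 core and none of 2 accessory subunits passed the test, but all 6 fold changes were negative. Ndufs8, an iron-sulfur subunit, missed the threshold narrowly, at 142, 109.9, 139.6 and 116 CPM in the LKB1-deficient libraries, against 186, 152, 183 and 159.8 CPM in the control libraries (log2 fold change -0.42 ± 0.14, adjusted p = 0.05005). Ndufs7, which carries the last iron-sulfur cluster before ubiquinone, stood at 179.8, 192, 164 and 154 CPM in the LKB1-deficient libraries, against 201, 192, 235 and 243 CPM in the control libraries (log2 fold change -0.34 ± 0.14, adjusted p = 0.094). In both genes the groups did not overlap, with gaps of 9.9 CPM for Ndufs8 and 0.43 CPM for Ndufs7. Over the 23 alternatives, Ndufs8 was called lower in 7 and Ndufs7 in 2. Ndufs3, a scaffold of the module's early assembly, stood at 32.4, 18.6, 25.2 and 20.2 CPM in the LKB1-deficient libraries, against 30.7, 31.8, 37.8 and 37.9 CPM in the control libraries (log2 fold change -0.52 ± 0.18, adjusted p = 0.0604), and LKB1-deficient replicate 1 lay above control replicate 1. The accessory subunits Ndufa5 and Ndufa9 had log2 fold changes of -0.40 ± 0.14 and -0.34 ± 0.17, and the groups did not overlap in Ndufa5. Of the 7 core subunits in both modules of the matrix arm, 1 (14.3%) was called lower, near the 10.1% of all genes tested. Their median log2 fold change was -0.34. Their summed CPM was 1057, 879.7, 975.7 and 823 in LKB1-deficient replicates 1 to 4, against 1165, 1088, 1310.05 and 1279 in control replicates 1 to 4. The sum kept the groups apart, with LKB1-deficient replicates 2 and 4 lowest.

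Some members are named after complex I but are not only its subunits, or could hardly be measured. Ndufab1, the mitochondrial acyl carrier protein, which also serves fatty acid and lipoic acid synthesis, had a log2 fold change of -0.35 ± 0.19 (adjusted p = 0.198) with overlapping groups, and the genome holds a copy, Ndufab1-ps. Ndufa4, now placed in complex IV, had a log2 fold change of -0.41 ± 0.16 (adjusted p = 0.0822). Ndufs5, an intermembrane-space subunit, had 0, 0, 3 and 3 counts in the LKB1-deficient libraries, against 1, 4, 8 and 1 in the control libraries, and was not tested. It has a near-copy, Ndufs5-ps, so these counts may not show its level. Ndufa4l2, a paralogue of Ndufa4 induced by hypoxia, had 0 counts in every LKB1-deficient library and 1 count in control replicate 1. Copies named Ndufa12-ps, Ndufs6b and Ndufa11b exist for 3 further members. Overlaps of exons on the same strand were annotated for Ndufb2, Ndufb8 and Ndufb9, and on the opposite strand for Ndufa13 with Tssk6, Ndufb5 with Mrpl47, Ndufb6 with Smim27 and Ndufaf2 with B230220B15Rik, among others. The sources used here do not say whether strand was used in the counting, so reads from such neighbours may be included. Ndufb1 was not analysed here.

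The assembly factors were examined gene by gene, since their summed level and their median pointed in different directions. Ndufaf3 and Ndufaf4 work as partners in building the Q module. Ndufaf3, at chr9:108565537-108567434 on the minus strand of GRCm38, was the assembly factor that fell, at 18.6, 16.9, 22.5 and 15.6 CPM in the LKB1-deficient libraries, against 27.3, 22.7, 34.7 and 26.0 CPM in the control libraries (log2 fold change -0.58 ± 0.17, adjusted p = 0.0377). No library of one group reached the other, and the highest LKB1-deficient value, in replicate 3, lay 0.241 CPM below control replicate 2. Ndufaf4, at chr4:24898083-24905001 on the plus strand of GRCm38, stood at 179, 298, 118 and 189.8 CPM in the LKB1-deficient libraries, against 125, 115, 123 and 131 CPM in the control libraries. LKB1-deficient replicate 2 was the highest of the 8 libraries, replicates 1 and 4 were also above every control, and replicate 3 lay among the controls. The means were 196 ± 75.0 CPM in LKB1-deficient cells and 123 ± 6.45 CPM in control cells (SD, n = 4 each), and the difference did not pass the test (log2 fold change 0.67 ± 0.24, adjusted p = 0.0636). DESeq2's Wald test called it higher (adjusted p = 0.0391), as did edgeR without LKB1-deficient replicate 3 (log2 fold change 0.84, adjusted p = 0.0152), while without LKB1-deficient replicates 2 and 4 the value was 0.27 (adjusted p = 0.407). The call of Ndufaf3 was lost without LKB1-deficient replicate 1, 2 or 4 or control replicate 1, 3 or 4, with an adjusted p of at most 0.265 over the 23 alternatives.

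Ndufaf2, which holds the place of Ndufa12 in the growing complex, stood at 72.6, 184, 71.6 and 139 CPM in the LKB1-deficient libraries, against 75.5, 109, 69.6 and 67.3 CPM in the control libraries (log2 fold change 0.53 ± 0.31, adjusted p = 0.217). LKB1-deficient replicates 2 and 4 were above every other library and replicates 1 and 3 lay among the controls, the same 2 libraries that were highest for Ndufa12. Without them its log2 fold change was -0.15. Ndufaf7, an arginine methyltransferase that acts early in assembly, stood at 35.2, 23.6, 36.7 and 29.4 CPM in the LKB1-deficient libraries, against 38.9, 41.0, 47.6 and 43.8 CPM in the control libraries (log2 fold change -0.45 ± 0.15, adjusted p = 0.0587). Its groups did not overlap but it did not pass the test, and it was called lower in 4 of the 23 alternatives. Ndufaf1, a member of the complex that builds the membrane arm, stood at 25.3, 24.2, 29.7 and 36.4 CPM in the LKB1-deficient libraries, against 38.8, 28.4, 32.8 and 41.8 CPM in the control libraries (log2 fold change -0.29 ± 0.17, adjusted p = 0.237). Ndufaf5, which hydroxylates an arginine of Ndufs7, stood at 39.7, 32.9, 35.6 and 39.4 CPM in the LKB1-deficient libraries, against 39.3, 37.8, 42.0 and 46.9 CPM in the control libraries (log2 fold change -0.17 ± 0.12, adjusted p = 0.331). Ndufaf6, needed for early assembly of complex I, stood at 41.6, 34.4, 49.7 and 35.9 CPM in the LKB1-deficient libraries, against 41.1, 50.8, 45.6 and 49.5 CPM in the control libraries (log2 fold change -0.20 ± 0.15, adjusted p = 0.321). In these last 3 genes the groups overlapped, and no single library stood apart in all of them.

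**Figure D3:**
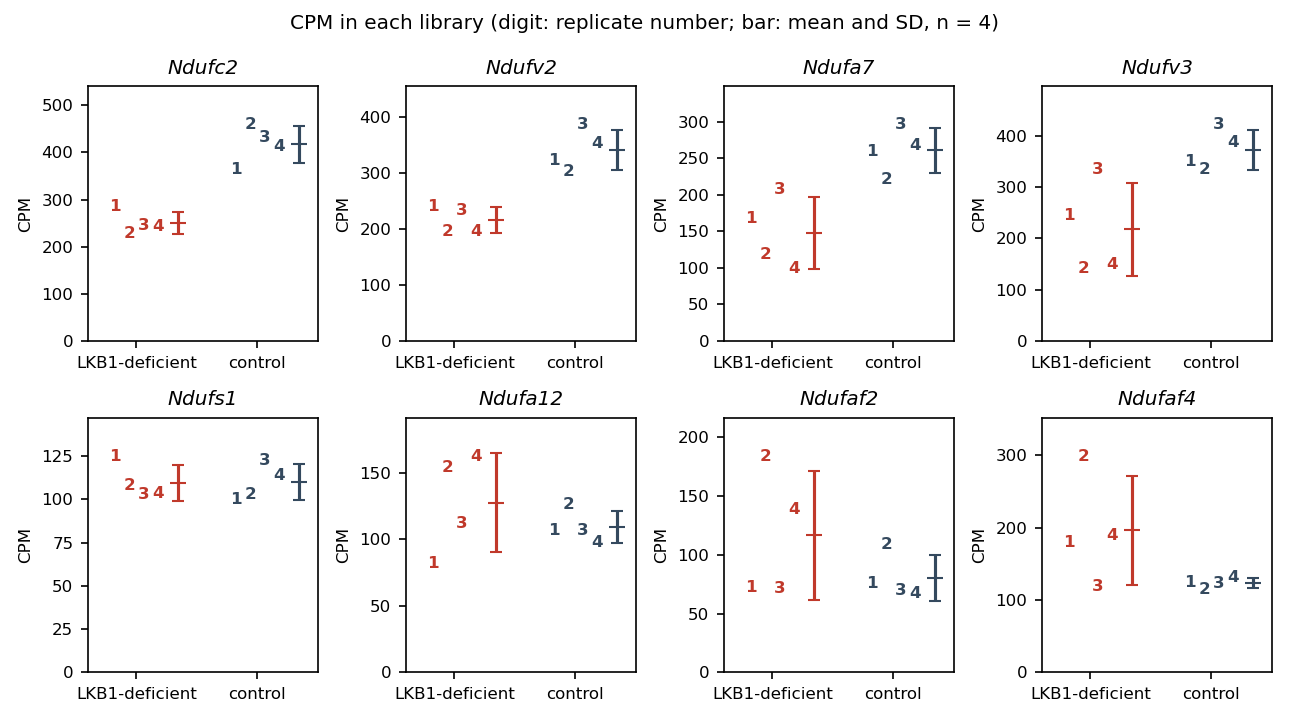
CPM of 8 Nduf genes in each library, with digits for the replicate numbers, and bars for the mean and SD of 4 libraries per group. Ndufc2, Ndufv2 and Ndufa7 show LKB1-deficient libraries below all controls, and in Ndufaf2 and Ndufa12 LKB1-deficient replicates 2 and 4 lie above the rest.

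Replicates 2 and 4 differed from replicates 1 and 3 within the LKB1-deficient group in the same way for most subunits. Both lay below the other 6 libraries in 23 of 36 subunits and 3 of 7 assembly factors, against 20.8% of all genes tested. Both lay below LKB1-deficient replicates 1 and 3 in 23 subunits and 3 assembly factors, against 29.3% of all genes tested. Both lay above LKB1-deficient replicates 1 and 3 in 3 subunits and 2 assembly factors, against 26.9% of all genes tested. Identifiers of the samples begin with ET in replicate 1 of each group and with EU in the other 6 libraries, and what these letters mark is not stated. Between the 2 ET libraries, the LKB1-deficient one was lower in 31 of 36 subunits and 4 of 7 assembly factors, against 50.2% of all genes tested. With only the 6 EU libraries, 11 subunits were called lower, and with a term for the prefix 10 were.

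Genes of neighbouring function were read from the same fit, in which 10.1% of all genes tested were called lower and 12.4% higher. Of 12 tested assembly genes of complex I whose symbols do not start with Nduf, 1 (8.33%) was called lower and none higher. Their median log2 fold change was -0.22. The gene called lower is 1810043H04Rik, which RefSeq names Ndufaf8, a partner of Ndufaf5. It stood at 64.4, 56.5, 64.8 and 61.2 CPM in the LKB1-deficient libraries, against 98.7, 77.7, 87.9 and 94.6 CPM in the control libraries (log2 fold change -0.54 ± 0.12, adjusted p = 0.0147). Those groups lay clear of each other, and its call held when any 1 library was left out but not without both LKB1-deficient replicates 2 and 4 (adjusted p = 0.12). Complex II, succinate dehydrogenase, feeds the same ubiquinone pool, and 4 of its 8 tested subunits and assembly factors were called lower and none higher, with a median of -0.57. They were Sdhb (-0.65, adjusted p = 0.039), Sdhc (-0.58, 0.0195), Sdhaf1 (-0.58, 0.0164) and Sdhaf4 (-0.61, 0.0189). Calls fell to 2 without LKB1-deficient replicate 2 or control replicate 4, to 1 without LKB1-deficient replicate 4 or control replicate 3, and to none without both LKB1-deficient replicates 2 and 4.

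Regulators that drive nuclear respiratory genes were read as well. Of 9 tested, 5 were called higher and none lower, with a median log2 fold change of 0.60, while 12.4% of all genes tested were called higher. They were Pprc1 (0.83, adjusted p = 0.00605) and Ppargc1b (1.04, 0.0332), both coactivators of the PGC-1 family, the nuclear receptor Esrra (0.60, 0.0278), Yy1 (0.86, 0.0217) and Gabpb2 (0.68, 0.0339). Nrf1, Gabpa, Gabpb1 and Tfam had values of 0.12, -0.04, -0.09 and -0.11 and did not pass the test, and Ppargc1a had 0 counts in all libraries. The call of Pprc1 held when any 1 library was left out and without both LKB1-deficient replicates 2 and 4. Calls fell to 2 without LKB1-deficient replicate 2, control replicate 2 or control replicate 4, and to that of Pprc1 alone without LKB1-deficient replicate 4 or control replicate 3, and under total count scaling 3 were called higher.

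Transcript length moved with the fold change across all genes, and most Nduf transcripts are short. In 5 bins of equal size by the longest annotated transcript, the median log2 fold change was -0.26, -0.11, 0.01, 0.09 and 0.36 from the shortest to the longest. In the shortest bin, of 64 to 1928 bases, 20.1% of genes were called lower and 3.72% higher. This bin held 28 of the 36 tested subunits, 13 of the 16 called subunits and 4 of the 7 assembly factors. The median length was 1093.5 bases for subunits and 1487 for assembly factors, against 3338 for all tested genes. After removal of each library's trend on length, 4 subunits were called lower, Ndufb2, Ndufb5, Ndufb8 and Ndufv2, and the median log2 fold change of the 36 was -0.13. Over all genes, 850 of 10353 were then called lower. The longest annotated transcripts of Ndufb2, Ndufb5 and Ndufb8 have 4371, 3127 and 2142 bases, outside the shortest bin. Whether these cells express those transcripts was not tested, and a shorter one would change the correction. With the length trend removed, Ndufv2 had a value of -0.46 (adjusted p = 0.021) and Ndufc2 one of -0.33 (adjusted p = 0.113). Ndufaf3 was then not called, and Ndufaf4 had a value of 0.64 (adjusted p = 0.079). In the same setting 1810043H04Rik had a log2 fold change of -0.16 (adjusted p = 0.332) and 3 complex II genes were called lower. Of the regulators, Esrra, Ppargc1b and Pprc1 were still called higher, Yy1 and Gabpb2 were not, and the median of the 9 was 0.19. Counts outside annotated genes also differed, at 14.9% to 17.5% of counts in LKB1-deficient and 12.1% to 14.3% in control libraries, and so did alignments to several places, at 2.21 to 2.65 per gene count in LKB1-deficient and 2.92 to 3.50 in control libraries. The part of these and of the mast cell and basophil markers in the subunits' levels was not tested.

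**Figure D4:**
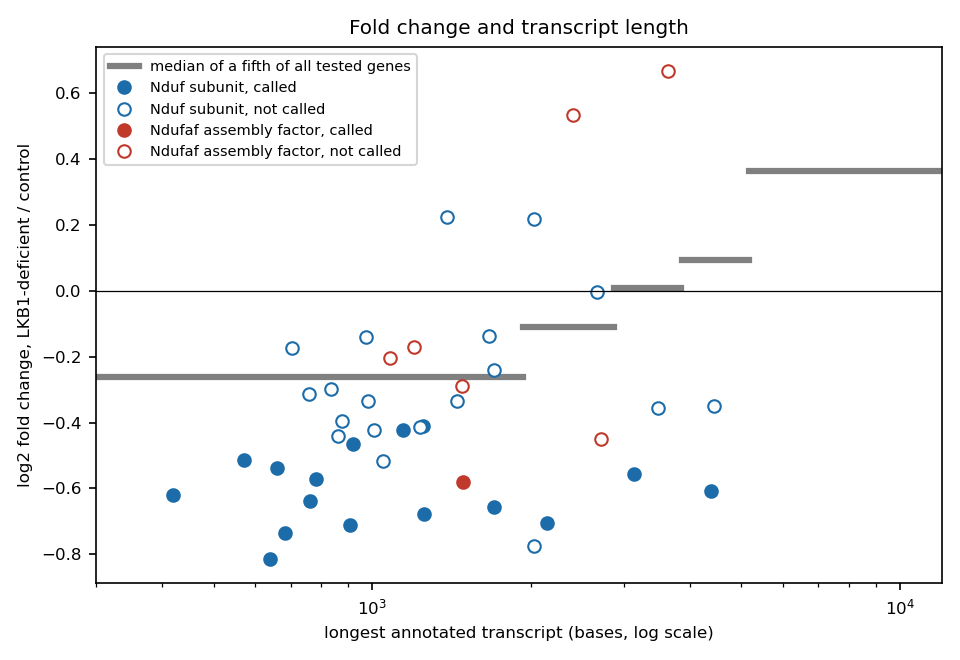
Log2 fold change (LKB1-deficient over control) against the longest annotated transcript on a log scale, for tested Nduf subunits and assembly factors; grey bars are the medians of 5 equal bins of all tested genes, drawn over each bin's range of lengths within the axis. Most subunits lie in the shortest bin, whose median is -0.26. All 17 called genes lie below that median. Calls favour large changes, so this does not set them apart from the length trend.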

How the data were processed

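The 8 libraries hold RNA from activated mouse CD8+ T cells, 4 LKB1-deficient and 4 control. Per the labels' protocols, Trizol RNA was primed with barcoded oligo-dT, pooled as cDNA by Actb qPCR and PCR enriched into strand-specific 3' libraries; no molecular identifiers are stated. The authors deposited raw counts per gene symbol, and per the submitters' processing notes reads were aligned with STAR to mm10. The sources used here do not name the counting program, annotation or versions. Each table ends in 5 lines that name no gene, which entered no library size or test; unannotated counts were 12.1% to 17.5%.

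Counts of all genes were fitted with edgeR 4.0.16 in R 4.3.3 (filterByExpr with a minimum count of 10 and a minimum total of 15, TMM, robust quasi-likelihood test, no covariates). P-values were Benjamini-Hochberg adjusted over all genes tested, and called means an adjusted p under 0.05. CPM use TMM-scaled library sizes, and standard errors are the absolute log2 fold change over the square root of F. Members and gene lists were chosen with earlier results of these data known. Values are given for each called member, assembly factor and core subunit and for the extremes; 1 member is not reported here by name and is counted only in the totals. Coordinates and lengths (99.6% of tested genes) come from GENCODE vM21 of GRCm38, the assembly of mm10. Alternatives included DESeq2 1.42.0, limma-voom (limma 3.58.1), other scalings and filters, a replicate block, a prefix term, libraries left out, thinning to 3454388 counts and removal of length and GC trends (lowess span 0.3). No 2 libraries of a group agreed within sampling noise (chi-square divided by its degrees of freedom was 11.6 to 49.05). Counts were also simulated with 200 genes changed, and 10313 genes entered that fit. The test recovered 7.35% of 1.5-fold, 52.8% of 2-fold and 96.5% of 4-fold changes for LKB1-deficient against control, with 2 false calls among 100. The simulation held no length trend, no split within the LKB1-deficient group and fewer changed genes than the 2337 called in the data. Its rates need not hold for these libraries.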

Additional observations from a re-analysis of the deposited data

Results flagged for a closer look

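In Ndufa13, control replicate 3 stood apart at 341.66 CPM, while the other 3 control libraries lay between 309.8 and 312.6 CPM; its gap was 0.912 of the group's range. In Ndufb9, control replicate 2 stood apart at 348.6 CPM below the other control libraries at 403 to 410.7 CPM, a gap of 0.875 of the range. These were 2 of 86 groups examined, where chance alone marks about 1 in 20. Counts outside annotated genes, which enter no comparison, had a median of 16.17% in LKB1-deficient libraries and lay between 12.13% and 14.27% in control libraries.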

How the results depend on the processing

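The count of 16 subunits lower was 22 with DESeq2's Wald test, 10 with the prefix term, 1 at an adjusted p of 0.01, 4 with the length trend removed, 4 with length and GC removed, 0 without both LKB1-deficient replicates 2 and 4, and 2 to 18 with single libraries left out. Assembly factors called lower numbered 2 with upper quartile or total count scaling or DESeq2's Wald test, 0 with limma-voom, the prefix term, the EU libraries only, thinning, an adjusted p of 0.01, length or length and GC removed, or without both replicates, and 0 to 2 with single libraries left out; 1 was called higher with DESeq2's Wald test and 0 to 1 with single libraries left out. The median log2 fold change was -0.58 for subunits and -0.36 for assembly factors under total count scaling, which shifts the median of all genes by -0.16 and splits calls into 829 higher and 1576 lower, against 1286 and 1051 in the reported fit and 1023 and 1446 under upper quartile scaling. It was -0.13 for subunits with either trend removal, and turned to 0.0908 (length) and 0.0955 (length and GC) for assembly factors. Genes called in all were 2337, 260 without both replicates, 437 at 0.01 and 1011 to 2825 with single libraries left out. Deviations of same-numbered libraries from their group means had correlations of -0.251, 0.291, 0.300 and -0.0861 for replicates 1 to 4. Libraries with different numbers had values from -0.372 to 0.34. With 4 libraries per group, this cannot decide whether the numbers pair them. A replicate block gave 11 subunits lower, kept 11 of the 17 member calls and called 1902 genes in all. Signs reversed for uncalled members. Ndufs1 became 0.0067 with DESeq2 size factors and 0.0545 without both replicates, and lay between -0.0706 and 0.0514 with single libraries left out. Ndufb4 lay between -0.2984 and 0.0509 with single libraries left out. With length and with length and GC removed, values were 0.0828 and 0.0648 for Ndufs1, 0.1949 and 0.2152 for Ndufb4, 0.0562 and 0.0441 for Ndufv1, 0.1167 and 0.0955 for Ndufaf5, 0.0908 and 0.1081 for Ndufaf6, 0.0909 and 0.1134 for Ndufb10, 0.2390 and 0.2450 for Ndufb9 and 0.0695 and 0.0876 for Ndufs6; Ndufs7 was 0.0047 with length. Without both replicates, Ndufa12 was -0.16, Ndufaf2 -0.15 and Ndufv1 0.14. The cause of these shifts was not tested.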
